A study of Mus musculus with 32 samples.

Results

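Microglia, the resident macrophages of the brain, were followed through 30 genes that mark their identity or serve their immune work. The genes were taken by name from a list of 32, and 30 of them were present among the 38740 gene symbols of the expression table. Irf8 and Cyba were not analysed here. The libraries were made from mouse subventricular zone, a forebrain region that produces new neurons after birth, at postnatal day 21. They comprised 28 libraries of 1 cell each, called cells 1 to 28, and 4 libraries of 10 pooled cells, called pools 1 to 4. All 32 libraries shared tissue and age, and the labels named no strain, genotype, sort, treatment or animal, so no cell could serve as a replicate of another and no test was made between them. Values are FPKM, the fragments counted for each kilobase of transcript and each 1000000 mapped fragments, which allow levels to be set side by side between genes. A gene was called found in a library at 1 FPKM or more.

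Microglia enter the brain from the embryonic yolk sac and live there under the control of colony-stimulating factor 1 receptor, encoded by Csf1r, and of the transcription factors PU.1, encoded by Spi1, and Sall1. They survey the tissue with fine processes that respond to nucleotides through P2Y receptors and to the neuronal chemokine fractalkine through Cx3cr1. In the subventricular zone they clear dying newborn cells, tag synapses and debris with complement C1q, and signal through adaptor proteins that carry an ITAM, a short tyrosine motif read by Syk kinase.

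The promoters of 5 members are shown first, since PU.1 binds a purine-rich box, GAGGAA, in many myeloid genes. RefSeq (GRCm38.p6) gave the 250 bases before the start of 24 transcripts of 21 members. GAGGAA, searched on both strands, lay in 12 of these 24 windows (50.0%), beside 23.3% of 32851 windows of all genes. The longer form GAGGAAGT, which overlaps the shorter, lay in 1 of the 24 windows, that of C1qc, beside 2.44% of all. Of the 5 windows below, 3 hold the box and 2 do not, and capitals mark the box or its reverse complement. C1qb and Ctss were high in every one of cells 18 to 20, Trem2 in 1 of them, P2ry12 varied 11.1-fold among them, and Olfml3 was listed at 0 in most other cells. The C1qb window is chr4:136886201-136886450 (minus strand, box 30 bases before the start), the Ctss window chr3:95526536-95526785 (plus strand, 164 bases before), and the Trem2 window chr17:48346151-48346400 (plus strand, box on the other strand 40 bases before). The P2ry12 window is chr3:59262986-59263235 and the Olfml3 window chr3:103738002-103738251, both on the minus strand. A match is a description of the letters only.
C1qb: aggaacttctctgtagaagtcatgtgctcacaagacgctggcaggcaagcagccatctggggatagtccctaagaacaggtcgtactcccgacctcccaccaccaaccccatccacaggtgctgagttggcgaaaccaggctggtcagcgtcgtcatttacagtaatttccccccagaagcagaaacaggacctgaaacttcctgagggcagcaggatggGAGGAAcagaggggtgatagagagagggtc
Ctss: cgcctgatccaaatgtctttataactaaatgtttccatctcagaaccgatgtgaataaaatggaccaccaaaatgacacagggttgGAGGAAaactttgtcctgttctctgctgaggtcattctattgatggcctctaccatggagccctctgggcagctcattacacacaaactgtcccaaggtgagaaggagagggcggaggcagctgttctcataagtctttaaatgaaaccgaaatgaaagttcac
Trem2: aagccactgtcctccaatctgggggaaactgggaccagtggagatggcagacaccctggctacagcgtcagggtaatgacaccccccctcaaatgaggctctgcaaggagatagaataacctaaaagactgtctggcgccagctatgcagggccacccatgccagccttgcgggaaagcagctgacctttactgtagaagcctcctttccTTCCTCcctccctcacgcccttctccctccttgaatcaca
P2ry12: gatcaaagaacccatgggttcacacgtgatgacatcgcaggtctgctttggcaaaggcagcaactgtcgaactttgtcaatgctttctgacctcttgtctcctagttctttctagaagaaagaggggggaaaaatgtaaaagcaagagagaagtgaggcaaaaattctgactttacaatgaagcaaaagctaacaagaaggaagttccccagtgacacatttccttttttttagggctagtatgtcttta
Olfml3: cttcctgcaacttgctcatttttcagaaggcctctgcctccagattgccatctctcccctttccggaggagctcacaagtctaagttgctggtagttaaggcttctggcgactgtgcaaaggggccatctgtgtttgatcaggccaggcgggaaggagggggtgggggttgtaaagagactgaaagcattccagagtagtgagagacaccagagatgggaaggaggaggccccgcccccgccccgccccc

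Some libraries stood apart before any gene was compared. In cells 18 to 22, and separately in cells 23 to 28, genes high in 1 library recurred at low levels in the other libraries of that range. Values are given as deposited, and counts of members and of further lists also with a limit, under which a value below 2% of the highest that the gene reached in that range was put at 0. Depth could be estimated in 19 of the 32 libraries, from a visible step of 1 fragment, at 6.31 to 20.9 in units of 1000000 fragments. No such step was clear in any of cells 18 to 28, so their depth is unknown. Cells 18, 19 and 20 had 2371, 3020 and 2107 genes found, cell 3 had 5932, and the pools had 10478 to 12870.

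Across the libraries, the 30 genes were concentrated in cells 18, 19 and 20. These cells had been set apart by microglial markers in an earlier look at the same values, so their levels are a description. Of the 30 members, 26 were found in cell 18, 27 in cell 19 and 27 in cell 20. The mean of log2(FPKM + 1) over the members was 7.40, 8.10 and 8.21 in these cells, and the members made up 8.87%, 9.56% and 10.7% of all FPKM. Cell 3 stood lower, with 16 members found, a mean of 3.29 and 0.257% of all FPKM. Cells 21 and 22 had 25 and 23 members found at means of 3.26 and 2.11, while cells 23 to 28 had 5 to 13 found at means of 0.67 to 1.91. The other 16 cells, cells 1, 2 and 4 to 17, had 0 to 8 members found with a median of 1.5, at means of 0.016 to 1.11. Pool 2 had all 30 found at a mean of 5.77, and pools 1, 3 and 4 had 14, 14 and 10 found at means of 1.45, 1.86 and 1.02.

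**Figure D1:**
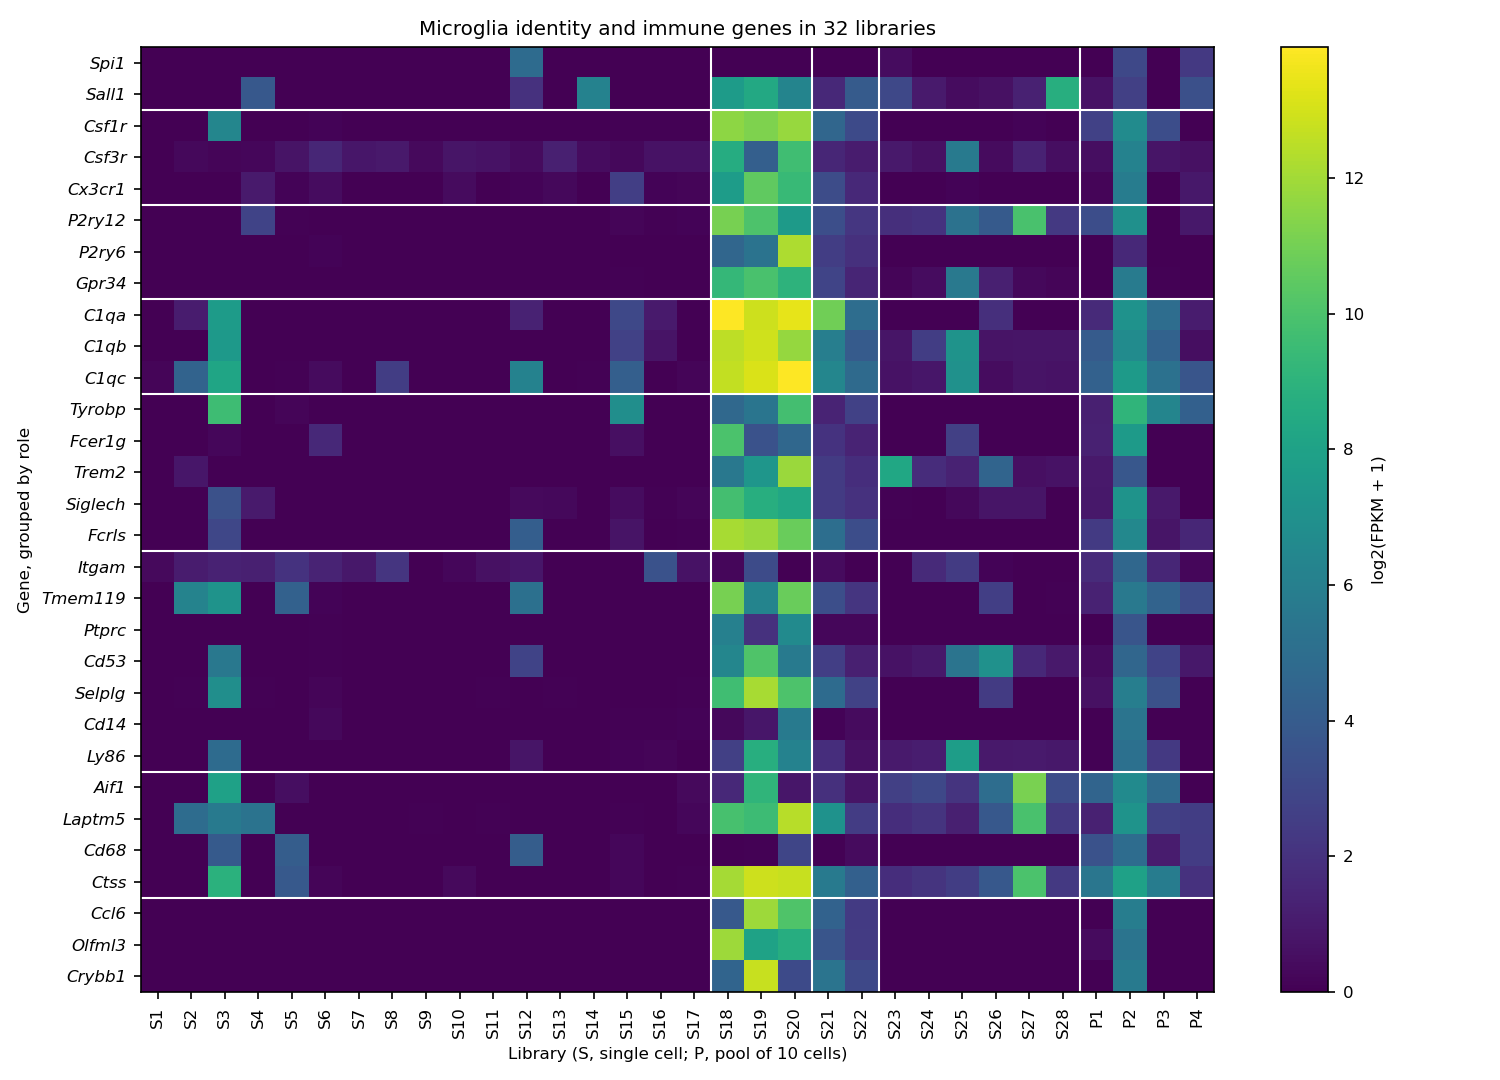
Heat map of log2(FPKM + 1) for the 30 genes (rows, grouped by role with white lines) in 28 single cells (S1 to S28) and 4 pools of 10 cells (P1 to P4), with white lines around cells 18 to 20 and cells 21 and 22. Cells 18 to 20 and pool 2 form the bright columns, cell 3 is bright in part of its rows, and cells 21 and 22 are dim in nearly all.

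In cells 18 to 20 the members' level stood far over that of the 16 other cells. The median over members of log2((mean FPKM of cells 18 to 20 + 1)/(mean FPKM of the 16 cells + 1)) was 8.99, as deposited and with the 2% limit, beside -2.25 over 18065 symbols as deposited. For 26 of the 30 members the values of cells 18, 19 and 20 all lay above the 16 other cells, beside 1.18% of the 18065 symbols. The exceptions were Spi1, Tyrobp, Itgam and Cd68. The same placing with every one of the cells at 1 FPKM or more and the 2% limit applied held for 18 members, beside 0.221% of symbols. Both shares describe cells that microglial markers had picked out, and nothing is read from them.

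The complement genes were among the most abundant members, and by the mean of cells 18 to 20 C1qa and C1qc led. C1qa, C1qb and C1qc encode the chains of C1q, the recognition molecule of the classical complement pathway, and lie together within 18.7 kb of chromosome 4 (136880129 to 136898803, GRCm38). C1qa measured 15642.5 FPKM in cell 18, 7387 in cell 19 and 10923 in cell 20. C1qb measured 5974, 7787 and 3363 FPKM in these cells. C1qc measured 6465, 8984 and 15506 FPKM. The chains thus kept within 2.12-fold to 2.40-fold between the highest and lowest of the 3 cells, and a different cell was highest for each. In the 16 other cells all 3 genes had a lowest value of 0, with highest values of 7.17 FPKM for C1qa, 5.46 for C1qb and 71.1 for C1qc.

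Partners of C1q were less complete. Of 11 complement genes outside the list, the 16 other cells had 0 to 2 found. In cells 18, 19 and 20, 4, 3 and 5 were found, and 3, 1 and 5 with the 2% limit. The leading one was Itgb2, the beta chain of the phagocyte complement receptors, at 681, 13.5 and 904 FPKM. C5ar1, the receptor for the C5a fragment, reached 266 FPKM in cell 20 and was at 1.05 and 1.98 in cells 18 and 19. C1ra, C1s, C2, C3, C4b and Serping1, which encode the proteases, substrates and inhibitor that follow C1q, were listed at 0 in all 3 cells.

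Receptors for growth factors and chemokines followed. Csf1r (chromosome 18, 61100598 to 61132149) measured 3018, 2375 and 3566 FPKM in cells 18, 19 and 20, and at most 0.0875 in the 16 other cells, where its median was 0. It had the narrowest spread of the 28 members with no value at 0, 1.502-fold between the highest and the lowest of the 3 cells. Its exons share 15.1% of their bases with Hmgxb3 on the opposite strand, which was listed at 0 in these cells. Cx3cr1, the fractalkine receptor, measured 208, 1504 and 672 FPKM, above a highest value of 5.07 in the 16 cells. Csf3r, the receptor of granulocyte colony-stimulating factor, measured 389, 17.6 and 811 FPKM. Csf3r was above 0 in all 16 other cells at 0.022 to 1.82 FPKM with a median of 0.587, a low signal more widespread than that of Csf1r or Cx3cr1. Of 9 ligands and binding partners of these and related receptors, only Sirpa, an inhibitory receptor that binds CD47, was at 1 FPKM or more in all of cells 18 to 20, at 1814, 74.4 and 2197. Il34 and Cx3cl1, the ligands of Csf1r and Cx3cr1 made by neurons, were listed at 0 there.

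Among the nucleotide and lipid receptors, P2ry12 and Gpr34 were high in all 3 cells and P2ry6 in 1. P2ry12, the ADP receptor that steers microglial processes to injury, measured 2127, 1042 and 192 FPKM. Gpr34, a receptor for lysophosphatidylserine, measured 611, 992 and 508 FPKM. P2ry6, the UDP receptor linked to phagocytosis, measured 23.7, 37.9 and 4815 FPKM. The level of P2ry6 in cells 18 and 19 fell under 2% of that in cell 20. In the 16 other cells P2ry12 reached at most 5.93 FPKM, P2ry6 0.0925 and Gpr34 0.046.

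The ITAM adaptors and the receptors that pair with them were even in part. Tyrobp, which encodes the adaptor DAP12, measured 24.7, 41.1 and 875 FPKM in cells 18, 19 and 20. Fcer1g, the Fc receptor gamma chain, measured 1004, 10.6 and 24.4 FPKM. Trem2, the lipid-sensing receptor that signals through DAP12, measured 46.5, 161 and 3687 FPKM. Tyrobp and Trem2 were thus both highest in cell 20 while Fcer1g was highest in cell 18. Siglech, a sialic acid-binding lectin that pairs with DAP12, was more even at 867, 423 and 322 FPKM. Fcrls, an Fc receptor-like scavenger protein used to sort microglia, measured 4431, 3598 and 1697 FPKM. Tyrobp also measured 117 FPKM in cell 15, above its values in cells 18 and 19.

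Downstream of the adaptors, the 16 other cells had 0 to 3 of 12 signalling genes and activating receptors found. In cells 18, 19 and 20, 4, 9 and 6 of them were found, and 3, 6 and 4 with the 2% limit. Fcgr3, an activating Fc receptor, measured 709, 2958 and 29.8 FPKM, and Inpp5d, the phosphatase SHIP1, measured 3.48, 237 and 65.1. Lyn, a Src family kinase, reached 471 FPKM in cell 18 and 5.78 and 3.99 in cells 19 and 20. Syk, the kinase that reads the ITAM, was at most 0.088 FPKM in the 3 cells, and Fgr was listed at 0.

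Surface proteins divided into those seen in every one of the 3 cells and those near 0 in some. Selplg, the selectin ligand PSGL-1, measured 815, 4488 and 1057 FPKM. Tmem119, a membrane protein used to tell microglia from other macrophages, measured 2144, 78.4 and 1699 FPKM and lies 18 kb from Selplg on chromosome 5. Cd53, a tetraspanin of blood cells, measured 84.7, 1082 and 50.9 FPKM. Ptprc, which encodes the common leukocyte antigen CD45, measured 65.7, 2.89 and 102 FPKM, while its values in the 16 other cells stayed at or under 0.041. Ly86, the partner of the Toll-like protein RP105, measured 5.21, 429 and 70.3 FPKM. Cd14, the lipopolysaccharide co-receptor, was found in cell 20 at 53.2 FPKM, with 0.247 and 0.788 in cells 18 and 19.

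Itgam and Cd68, common protein markers of microglia, were low. Itgam, the alpha chain CD11b, measured 0.166, 8.24 and 0.0078 FPKM in cells 18, 19 and 20. In the 16 other cells it ran from 0 to 10.2 FPKM with a median of 0.696, so the groups overlapped. Most of its exon bases, 68.7%, also belong to the annotated gene Gm49368 on the same strand, so its counts are uncertain. Cd68, a lysosomal glycoprotein, was listed at 0 in cell 18 and measured 0.075 FPKM in cell 19 and 6.56 in cell 20. Cells 5 and 12 had more Cd68, at 16.3 and 16.1 FPKM.

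The lysosomal and cytosolic members ranged from even to single-cell. Ctss, the cysteine protease cathepsin S, measured 4308, 7489 and 7041 FPKM, a 1.74-fold spread. Laptm5, a lysosomal membrane protein of blood cells, measured 944, 749.5 and 5457 FPKM. Aif1, which encodes the actin-bundling protein Iba1, the usual histological stain for microglia, measured 1.996, 548 and 0.822 FPKM. Of the 3 cells, cell 19 was thus the one with a high level of Aif1. Of 12 further lysosomal genes all 12 were found in each cell, and 10 in each with the 2% limit, led by Cst3, an inhibitor of cathepsins, at 32814, 32909 and 30482 FPKM. The 16 other cells had 2 to 12 of these genes found. Of 5 further subunits of the phagocyte oxidase, 3 were found in each of cells 18 to 20, and 2, 1 and 0 with the limit. The 16 other cells had 0 to 1 of these subunits found. Cybb and Ncf4 were listed at 0 in all of cells 18 to 20.

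Secreted and other members differed widely among the 3 cells. Olfml3, a secreted olfactomedin-like protein, measured 3743, 263 and 404 FPKM. Ccl6, a CC chemokine, measured 14.02, 3869.8 and 1080.5 FPKM. Crybb1, a crystallin known from the lens and also used as a marker of early microglia, measured 21.2, 7041 and 7.69 FPKM. Ccl6 and Crybb1 were listed at 0 in all 16 other cells, and Olfml3 reached 0.030 FPKM there.

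The transcription factors went separate ways. Sall1, a zinc-finger repressor that upholds microglial identity, measured 200, 344 and 77.2 FPKM in cells 18, 19 and 20. It was also found in cells 4, 12 and 14 at 13.3, 3.03 and 70.1 FPKM, so the lowest of cells 18 to 20 lay just above the highest of the 16 cells. Spi1 was listed at 0 in all 3 cells and in cell 3. Its values at 1 FPKM or more were 28.8 in cell 12, 7.12 in pool 2 and 4.06 in pool 4. Since an exact 0 can be a failed estimate, Spi1 is described only as listed at 0. Of 11 other myeloid transcription factors, 3, 6 and 4 were found, and 3, 6 and 3 with the limit, led by Irf5, an interferon regulatory factor, at 267, 1497 and 28.1 FPKM. The 16 other cells had 0 to 4 of these factors found. Runx1 reached 243 FPKM in cell 19 and stayed at 0.63 and 0.50 in cells 18 and 20.

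**Figure D2:**
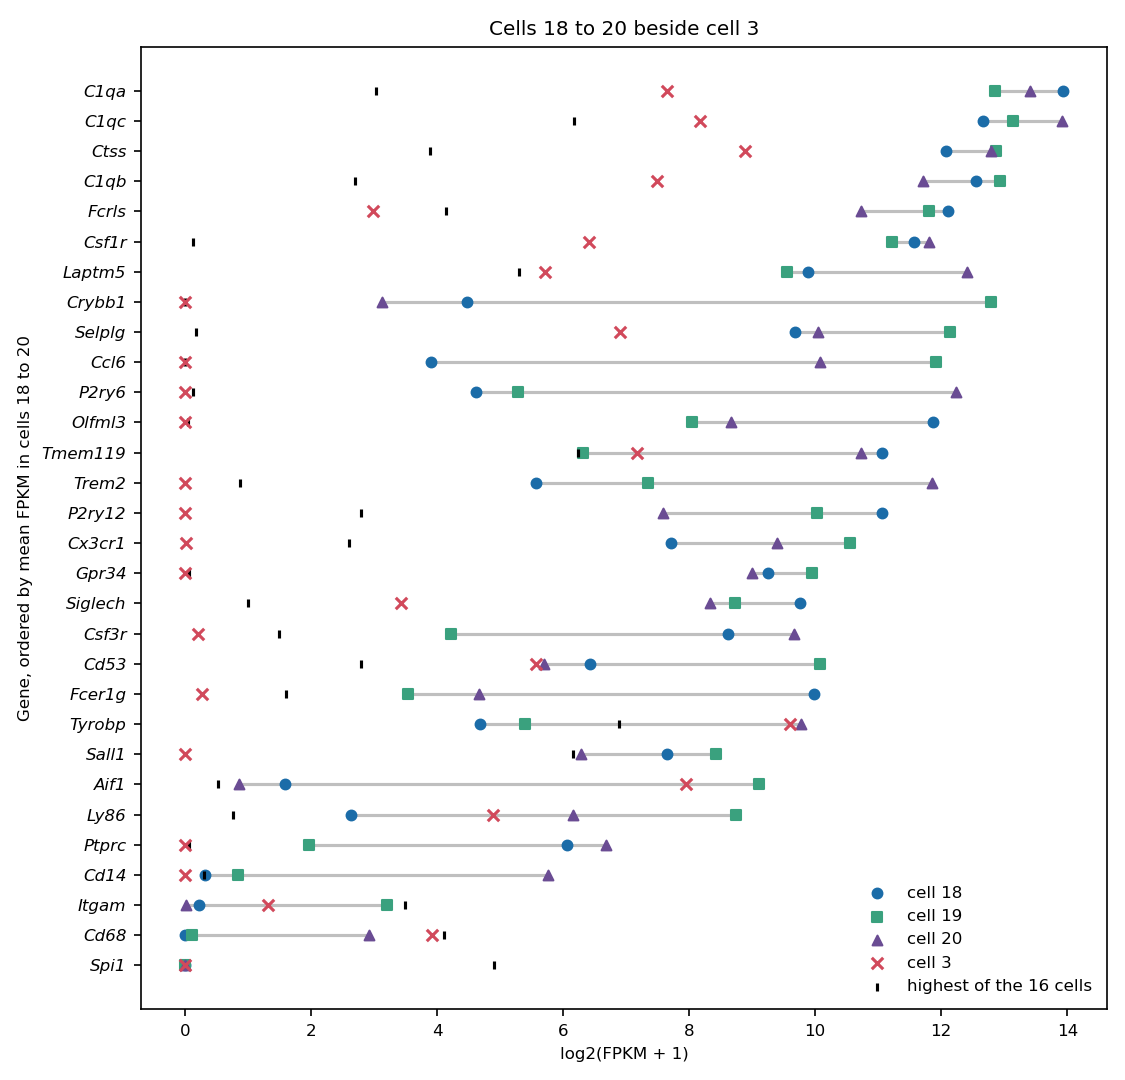
Values of log2(FPKM + 1) of the 30 genes (rows, ordered by mean FPKM) in cells 18, 19 and 20 joined by a grey line, in cell 3, and at the highest of the 16 other cells. Csf1r, Ctss and the C1q genes show short lines far to the right, Crybb1 and P2ry6 long ones, and Spi1 sits at 0 in cells 3 and 18 to 20.

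The spread among the 3 cells differed widely from member to member. Over the 28 members with no value at 0 in these cells, the highest was 1.502 to 1057 times the lowest, with a median of 17.8. It was under 10-fold for 12 members, among them Csf1r, Ctss, Gpr34, the C1q genes, Fcrls and Siglech. It was at least 100-fold for 6, namely P2ry6, Cd14, Ccl6, Aif1, Crybb1 and Itgam, with lowest values of Cd14, Aif1 and Itgam under 1 FPKM. The median log2 range was 3.33 for the members and 3.03 over 3905 symbols found in any of these cells. Those symbols were not matched to the members by level, so the medians are not a like comparison. Cell 19 was highest for 12 members, cell 20 for 10 and cell 18 for 7. The 2% limit left 19 members in all 3 cells, and 4 (Fcer1g, Trem2, Ly86 and Ccl6) in 2 of them. It left 6 members in 1 cell (P2ry6, Itgam, Cd14, Aif1, Cd68 and Crybb1). With the limit the mean levels were 6.63, 7.78 and 8.08, and 20, 25 and 26 members were found.

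Lists of other cell types were set beside cells 18 to 20. None of 6 monocyte, 8 neutrophil, 10 lymphocyte, 4 mast cell, 12 endothelial, 8 mural, 11 oligodendrocyte, 10 astrocyte or 10 ependymal markers was found in any of the 3 cells. Of 10 housekeeping genes, which most cell types express, only 6, 8 and 8 were found there, and 3, 5 and 6 with the 2% limit. A marker not found in these libraries is thus not shown to be absent from the cell. Summed over their list, the monocyte markers stood at 0 to 0.0051 FPKM and the endothelial markers at 0.182 to 0.971. Of 8 markers of border-associated macrophages, which live in meninges and around vessels, only Stab1 was found, at 2.28 FPKM in cell 19 and 12.1 in cell 20. Mrc1, Lyve1, Pf4, Cbr2, F13a1 and Ms4a7 were listed at 0 in all 3 cells. Of 12 neuroblast markers 5, 9 and 4 were found at up to 13.7 FPKM, and of 6 mitotic genes 4 were found in each. The highest of these, Birc5, an inhibitor of apoptosis active in mitosis, measured 18.7, 51.5 and 15.3 FPKM beside 4307 in cell 21. With the 2% limit no mitotic gene was left in the 3 cells, and the neuroblast markers found were 0, 1 and 0.

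Other microglial and activation genes varied in the same cell-by-cell manner. Of 16 microglia genes outside the list, the 16 other cells had 1 to 7 found. In cells 18, 19 and 20, 11, 15 and 10 were found, and 9, 13 and 8 with the 2% limit. Vsir, an immune checkpoint receptor, measured 4974, 2029.8 and 1578 FPKM in these 3 cells. Pld4, an endolysosomal nuclease, measured 633, 1317 and 1322 FPKM. Of 17 inflammatory genes 4, 5 and 5 were found, and 3, 4 and 3 with the limit. The 16 other cells had 0 to 6 of these found. Tlr7, a sensor of single-stranded RNA, measured 2479 FPKM in cell 18 and 24.7 and 25.5 in cells 19 and 20, while the chemokines Ccl3 and Ccl4 measured 1206 and 1412 in cell 18 and 28.3 and 14.4 in cell 20. Tnf, Il1a and Il1b were listed at 0 in all 3 cells. Of 10 genes linked to damage-associated microglia, 4, 4 and 5 were found, and 1, 0 and 5 with the limit. The 16 other cells had 2 to 5 of these found, so the counts overlapped. In cell 20 Apoe measured 2609.6 FPKM and Cd63 4880.5, beside 11.9 and 23.6 in cell 18, whereas Cst7, Spp1 and Axl were listed at 0 in all 3 cells. In the 16 other cells Apoe reached 4212 FPKM and Cd63 1734, each in cell 15.

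Cell 3 carried part of the list beside another cell type's markers. Of the 30 members, 16 were found in it, and 13 stood above all 16 other cells, beside 5.23% of 17926 symbols. The median log2 ratio of cell 3 to the 16 cells was 0.99 over the members and -1.20 over all symbols. With the pseudocount of 1 replaced by 10 it was 0.31, and over the members found in any of these cells alone it was 3.66. Tyrobp led at 772 FPKM, beside 875 in cell 20, followed by Ctss at 473, C1qc at 286, Aif1 at 247, C1qa at 201 and C1qb at 179.7. Tmem119 measured 143 FPKM, Selplg 119, Csf1r 83.9, Laptm5 51.7, Cd53 46.6 and Ly86 28.7. Cd68 at 14.2 FPKM was the member that exceeded all of cells 18 to 20.

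Most members were lower in cell 3 than in cells 18 to 20. It lay below all 3 for 23 members, beside 21.7% of 8043 symbols, within their range for 6 and above it for 1. With the 2% limit it lay below all 3 for 17 members, a count for which no share over all symbols was taken. The median log2 ratio to the mean of cells 18 to 20 was -5.57 over the members, with and without the limit, and 2.44 over all symbols as deposited. The 16 members found in cell 3 stood at 0.213% (Fcrls) to 642% (Cd68) of that mean, with a median of 6.56%. The C1q genes stood at 1.77% to 3.15%, Csf1r at 2.81%, Ctss at 7.53% and Aif1 at 134%. The order of members thus differed as well as the level.

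A set of 10 members at 10 FPKM or more in all of cells 18 to 20 stayed under 1 FPKM in cell 3. With the 2% limit 6 of them did so (Sall1, Csf3r, Cx3cr1, P2ry12, Gpr34 and Olfml3). No share over all symbols was taken for these counts, so they only name the genes. P2ry12, P2ry6, Gpr34, Sall1, Trem2, Ccl6 and Olfml3 were listed at 0, and Csf3r, Cx3cr1 and Fcer1g measured 0.154, 0.0135 and 0.203 FPKM. Siglech and Fcrls, at 9.81 and 6.91 FPKM, were found but low. The purinergic receptors and the fractalkine receptor were thus among the members under 1 FPKM in cell 3, while C1q, Ctss, Tyrobp and Aif1 were found.

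Endothelial markers filled the same library. All 12 were found in cell 3, with Cldn5, a tight junction protein, at 2998 FPKM and Flt1, a receptor for vascular endothelial growth factor, at 501, and the list's mean was 9.32 in log2(FPKM + 1). In cells 18 to 20 that mean was at most 0.08 and Cldn5 was listed at 0. Pf4, a platelet and border macrophage gene, measured 113 FPKM in cell 3, and the other 7 border macrophage markers were under 1 FPKM. Of 6 monocyte markers Ly6c2 and S100a4 were found, at 1817 and 64.2 FPKM, with Lyz2, Plac8 and Chil3 listed at 0. Ly6c2 is a near copy of Ly6c1, which measured 8672 FPKM there, so its value is uncertain. The part of these other cells' RNA in the members' levels was not tested.

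In cells 21 and 22 the members repeated cells 18 to 20 at a small share. Cell 21 was above 0 and under 2% of the highest of cells 18 to 20 for 26 members, beside 43.6% of 3905 symbols. Cell 22 was so for 27 members, beside 39.2%. Over the 26 members that reached 100 FPKM in cells 18 to 20, the median share of the highest value was 0.522% in cell 21 and 0.158% in cell 22. All 1180 symbols that reached 100 FPKM had similar medians, 0.436% and 0.134%. Of these 1180, 74.9% in cell 21 and 73.9% in cell 22 lay above 0 and under 1%. The 26 members had 24 and 25 under 1%, with none at 0. The 3905 symbols were not matched to the members by level, so the 1180 are the closer comparison. Cell 22 was lower than cell 21 for 24 of the 26 members. Across these 26 members, the log2 level in cell 21 and the highest log2 level in cells 18 to 20 had a Pearson correlation of 0.846, and that in cell 22 of 0.734. Such members share their libraries, and the correlation only describes them.

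The values of single members show the pattern. Csf1r, at 3566 FPKM in cell 20, measured 23.7 in cell 21 and 7.86 in cell 22. Crybb1, at 7041 FPKM in cell 19, measured 39.7 and 6.996. Ccl6, at 3869.8 FPKM in cell 19, measured 19.9 and 4.22. Some members of low level in cells 18 to 20 stood under 1 FPKM in both, such as Cd14 at 0.090 and 0.310 FPKM.

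A few members departed from that share. C1qa measured 1911 FPKM in cell 21, 12.2% of the value in cell 18, while C1qb and C1qc stood there at 61.4 and 82.4 FPKM, 0.788% and 0.531%. Laptm5 measured 134 FPKM in cell 21, or 2.46%. Sall1 measured 14.7 FPKM in cell 22, or 4.29%, against 2.09 in cell 21. At values under 1 FPKM, Cd68 measured 0.309 in cell 22, or 4.71%, and Itgam 0.336 in cell 21, or 4.08%. With the 2% limit only C1qa and Laptm5 remained found in cell 21, and only Sall1 in cell 22. Both cells had high neuroblast genes, such as the homeobox gene Dlx1 at 514 and 523 FPKM, and cell 21 also had high mitotic genes, such as Top2a, a DNA topoisomerase, at 929.

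**Figure D3:**
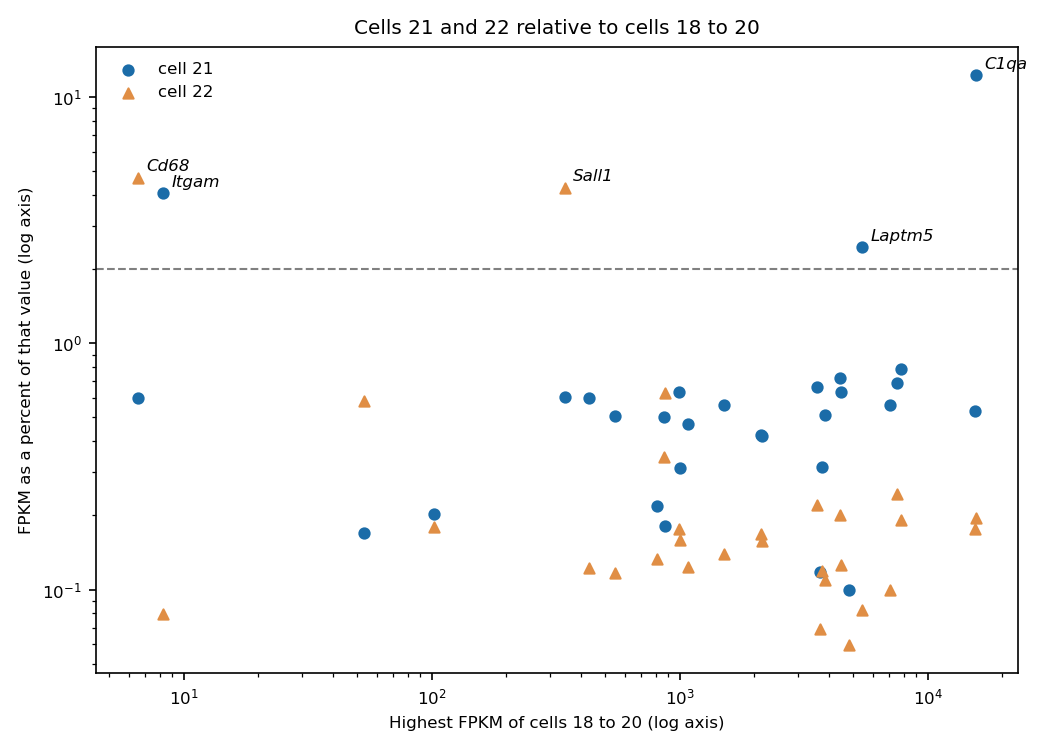
FPKM of each member in cell 21 (circles) and cell 22 (triangles) as a percent of the highest of cells 18 to 20, against that highest value, both on log axes, with a dashed line at 2%. Most points lie between 0.0596% and 0.788%, and the named genes lie above the line.

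Cells 23 to 28 held part of the list. Of the 30 members, 12 reached 10 FPKM in at least 1 of these 6 cells, 17 were found in any and 9 were listed at 0 in all. The same shares over all symbols were not taken, so these counts are a description. Cell by cell, 8.95% to 13.1% of all symbols were found. In cell 27 Aif1 measured 2242 FPKM, Ctss 998, P2ry12 990.3 and Laptm5 987, while Csf1r measured 0.101 and C1qa and Tyrobp were listed at 0. Aif1 was higher in cell 27 than in any other library. Cell 25 was highest of the 6 for Ly86 at 217 FPKM, C1qb at 143, C1qc at 134, Csf3r at 52.1 and Gpr34 at 49.6. Cd53 measured 132 FPKM in cell 26 and 40.1 in cell 25.

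The identity factor Sall1 and the receptor Trem2 were each high in 1 of these cells. Sall1 measured 425 FPKM in cell 28, above its values in cells 18 to 20, and Trem2 311 in cell 23 and 21.9 in cell 26. For the 12 members at 10 FPKM or more, all 60 values in the other cells of the 6 were above 0, with a median of 0.458% of the highest, and 54 were under 2%. The second-highest value had a median of 2.17% of the highest. With the 2% limit cells 23, 24 and 28 held 1, 2 and 1 members found, cell 25 held 9, cell 26 held 6 and cell 27 held 5. Csf1r was found in none of the 6 cells. Of 12 neuroblast markers, cells 23 to 28 had 10, 10, 11, 10, 9 and 12 found. With the 2% limit these cells had 8, 9, 9, 7, 7 and 7.

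**Figure D4:**
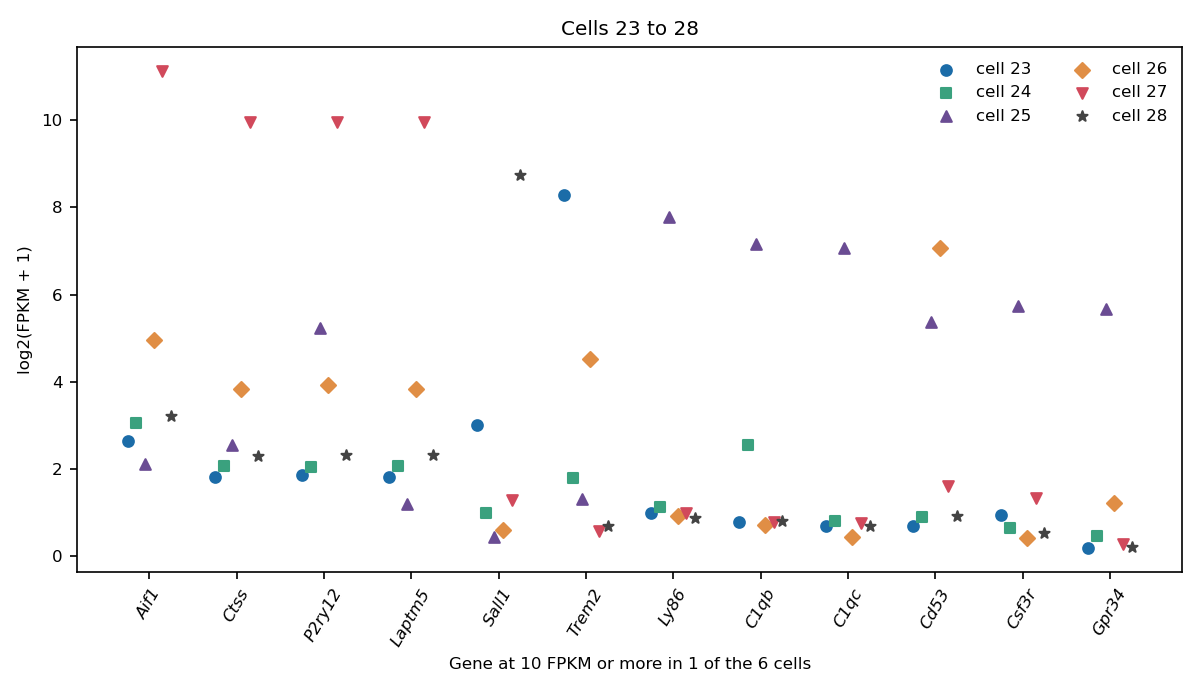
Values of log2(FPKM + 1) in cells 23 to 28 for the 12 members at 10 FPKM or more in any of them. Each gene has 1 cell far above the rest, except Cd53 with 132 FPKM in cell 26 and 40.1 in cell 25.

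The 16 other cells held scattered members. In these cells 12 members were found in none, and 17 values reached 10 FPKM, spread over 7 cells. Cell 12 held 5 of them, namely C1qc at 71.1 FPKM, Tmem119 at 34.8, Spi1 at 28.8, Fcrls at 16.7 and Cd68 at 16.1. Cell 2 held Tmem119 at 74.3 FPKM, Laptm5 at 29.3 and C1qc at 20.9. Cell 15 held Tyrobp at 117 FPKM and C1qc at 17.9, with C1qa and C1qb at 7.17 and 5.46. Cells 4, 5, 14 and 16 held the rest, led by Sall1 at 70.1 FPKM in cell 14 and Laptm5 at 38.4 in cell 4. Csf1r was found in none of the 16 cells. The oligodendrocyte list was high in cell 12, the endothelial list in cell 2 and the ependymal list in cell 15, at means of 8.41, 9.73 and 6.48 in log2(FPKM + 1).

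In the pools of 10 cells the members were uneven, and pool 2 stood alone. It had all 30 members found, from P2ry6 at 1.997 FPKM to Tyrobp at 559, with a median of 57.9. It was above the 3 other pools for 29 members, beside 32.1% of 17069 symbols. The exception was Sall1, at 9.52 FPKM in pool 4 and 5.27 in pool 2. The identity receptors Csf1r, P2ry12 and Cx3cr1 measured 105, 128 and 56.5 FPKM in pool 2. In pools 1, 3 and 4 they measured 5.47, 8.92 and 0 (Csf1r), 8.92, 0 and 0.833 (P2ry12), and 0.140, 0.067 and 0.849 (Cx3cr1). In a pool, fewer cells of a type and less RNA per cell cannot be told apart.

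Set beside cells 18 to 20, pool 2 had another balance of members. Over the 25 members with a mean above 100 FPKM in those cells, pool 2 stood at 0.123% to 178% of the mean, with a median of 3.68%. P2ry6 at 0.123%, Trem2 at 0.966% and C1qa at 1.22% were low in it. Tyrobp stood at 178%, Fcer1g at 55.9%, Aif1 at 55.4% and Siglech at 26.2%. Itgam at 24.2 FPKM, Cd68 at 29.6 and Cd14 at 39.5 in pool 2 stood beside highest values of 8.24, 6.56 and 53.2 in cells 18 to 20. Of these, Tyrobp, Fcer1g, Itgam, Cd68 and Cd14 are not particular to microglia. The cause of the different balance was not tested.

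Monocyte markers were found in pool 2 as well. All 6 reached 1 FPKM there, with Lyz2, encoding lysozyme, at 2450 FPKM, Plac8 at 623, Chil3 at 339, Ly6c2 at 585, S100a4 at 42.9 and Ccr2 at 1.97. Ly6c2 is uncertain here as in cell 3, since its near copy Ly6c1 measured 2076 FPKM in pool 2. The monocyte list's mean was 7.53 in log2(FPKM + 1) in pool 2, 0.10, 2.20 and 0.11 in pools 1, 3 and 4, and 0.00 in cells 18 to 20. In pool 3 Ly6c2 measured 913 FPKM beside Ly6c1 at 2019, and the other monocyte markers at most 6.82. Cell 17 reached a mean of 2.57 with Ly6c2 at 1521 FPKM. Il1b at 27.5 FPKM, Clec7a at 37.5, Ncf4 at 91.5 and Cybb at 9.07, all listed at 0 in cells 18 to 20, were also present in pool 2. All 12 endothelial and all 8 mural markers were found in it. How much of the members' level in pool 2 comes from such cells was not tested.

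The other pools had a few members each. Pool 1 had 14 found, led by Ctss at 44.0 FPKM, Aif1 at 21.6 and C1qc at 18.9. Pool 3 had 14, led by Tyrobp at 80.6 FPKM, Ctss at 56.6 and C1qc at 36.0. Pool 4 had 10, led by Tyrobp at 18.4 FPKM, C1qc at 11.5 and Sall1 at 9.52. C1qa, C1qc, Ctss, Tyrobp, Tmem119, Laptm5 and Cd68 were found in all 4 pools, and P2ry6, Ptprc, Cd14, Ccl6 and Crybb1 were listed at 0 in pools 1, 3 and 4.

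**Figure D5:**
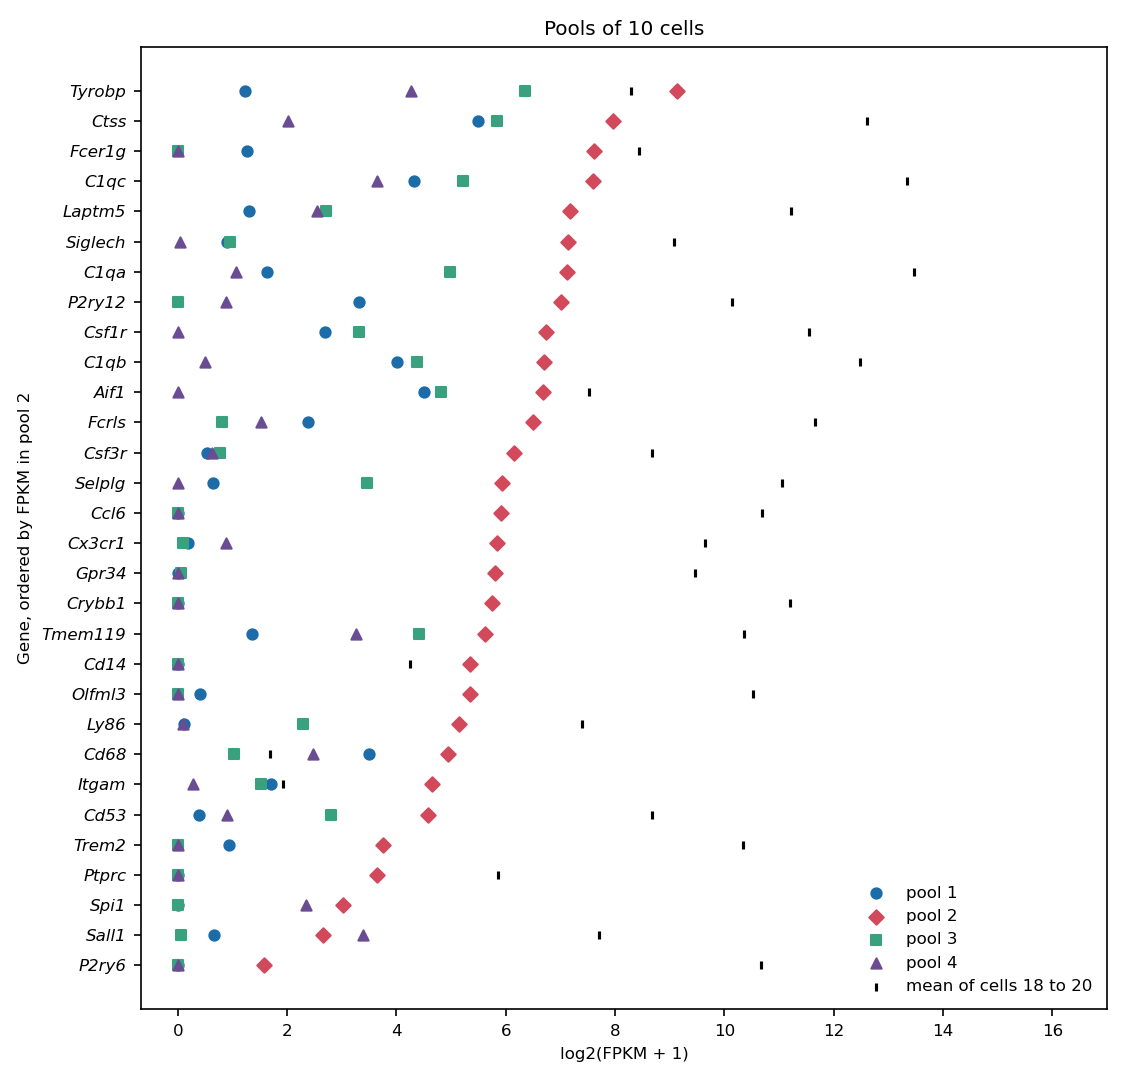
Values of log2(FPKM + 1) of the 30 genes in pools 1 to 4, with genes ordered by their level in pool 2 and a black mark at the mean of cells 18 to 20. Pool 2 is the rightmost pool for all but Sall1, and the black mark lies to its right except for Tyrobp, Cd14, Cd68, Itgam and Spi1.

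Against the mean of the 28 cells, the pools were lower for most members. With the mean of the 4 pools over that of the 28 cells, 1 FPKM added to each, the median log2 ratio was -2.76 (SD over pools 2.22, n = 4), beside 0.064 over 19783 symbols. Pool by pool it was -5.31, -1.11, -4.94 and -6.07. With 1 FPKM added to each, the pool mean lay under 1/2 of the cell mean for 22 of 30 members, beside 13.9% of the 19783 symbols. Without cells 18 to 20 the median turned to 1.58, so its sign rests on these 3 libraries. From means of log values it was 0.80. Without pool 2 it was -5.22.

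Some members tracked the list over the 28 cells more closely than others. The Pearson correlation of log2(FPKM + 1) with the mean of the remaining members was 0.97 for Siglech and Csf1r, 0.96 for Selplg and 0.95 for Fcrls and C1qb. It was 0.39 for Aif1, 0.22 for Cd68, 0.07 for Itgam and -0.06 for Spi1. Among 13666 symbols found in at least 3 cells, those outside the list with the highest correlation to its mean were Pld4 at 0.96, Sla at 0.95, P2ry13 at 0.94, Ccl3 at 0.91 and Unc93b1 at 0.90. Serpinf1, Itgb2, Rgs1, Ptpn6 and Fcgr3 followed at 0.89 to 0.87. P2ry13, a further ADP receptor, measured 522, 205 and 196 FPKM in cells 18, 19 and 20. Sla, an adaptor that dampens antigen receptor signals, measured 286, 700 and 175 FPKM. These correlations over cells rest on the contrast of cells 18 to 20 with the rest and are descriptions over shared libraries. By Spearman correlation 1 of the 10 symbols remained among the top 10, and without cells 21 to 28 it was 4.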

How the data were processed

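The authors deposited 1 table of FPKM per gene. Per the submitters' processing notes, TopHat 1.41 and Cufflinks 2.02 were used on build mm9. The loci match GRCm38 instead: 96.0% of 39011 lines carry a GENCODE M21 gene ID, of which 99.72% overlap that gene, so coordinates are GRCm38. For the read layout, strandedness and gene annotation release, the methods are not given in the sources used.

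Lines of 1 symbol were summed (38740 symbols), 27 symbols turned into dates were restored, and ratios were taken on the log2 scale with a pseudocount of 1, which understates changes of low genes. An exact 0 can be a failed estimate, and overlapping genes are uncertain. Depth was estimated from 1729 single-exon genes with an assumed fragment of 200 bp, and is approximate. No 2 libraries were identical. No doublet caller was run. No test between groups was made, since cells are not replicates. Dixon's ratio was used over the 4 pools to mark values far from the rest. Members, lists and the 2% limit were chosen with earlier results of these data known. All members are named, with up to 4 leading genes of each further list and the 10 symbols most correlated with the members' mean; other named genes were chosen after their values were seen. Some leading genes of these lists are not reported here. The alternatives without cells 18 to 22, and with the 2% limit on ratios and further lists, were added after seeing the data. Computations were tested on simulated data, with Python 3.11.15, NumPy 2.4.6 and pandas 2.3.3.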

Additional observations from a re-analysis of the deposited data

Results flagged for a closer look

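In 11 of the 31 values examined over the 4 pools on the log2(FPKM + 1) scale, pool 2 lay so far above the other pools that its gap to the nearest, divided by the whole range, passed the 95% critical value of Dixon's ratio for 4 samples. For P2ry6, Ptprc, Cd14, Ccl6 and Crybb1 the other 3 pools were listed at 0, so any value above 0 in pool 2 gives the largest possible ratio and the mark says nothing beyond that. For the other genes chance gives such a gap in about 5% of groups, and the members are not independent of each other. The genes, with their FPKM in pool 2, were the receptors Csf3r (70.5), Cx3cr1 (56.5), P2ry6 (1.997) and Gpr34 (54.6), and the ITAM adaptor Fcer1g (193.8) with the lectin Siglech (140.6). The leukocyte antigens Ptprc (11.6) and Cd14 (39.5), the secreted Ccl6 (59.4) and Olfml3 (39.4), and the crystallin Crybb1 (52.9) completed them. No member was so far apart in pool 1, 3 or 4.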

How the results depend on the processing

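Of 177 alternative values, 109 stayed close to the value reported, 65 moved and 3 changed sign. A ratio counted as close within 1 SD of the same median taken over the 3 cells or the 4 pools. For the pools this SD was 2.22 log2 units, a wide band. For cell 3 against the 16 cells the SD was that of cells 18 to 20 (0.694). Shares were judged by their spread over members, and counts by a fixed fold limit. The median log2 ratio of cells 18 to 20 to the 16 cells (8.99) was 10.45 with a pseudocount of 0.1, 6.23 with 10 and 8.29 from means of log values. That of cell 3 to the 16 cells (0.99) was 3.66 over found members only and 0.31 with a pseudocount of 10. That of cell 3 to cells 18 to 20 (-5.57) was -4.96 with a pseudocount of 10 and -6.34 with libraries rescaled to 1 sum. That of pools to cells (-2.76) turned to 0.80 from means of log values, 1.58 without cells 18 to 20 and 1.85 without cells 18 to 22, and ran from -5.22 to -2.39 with 1 pool left out. Over the 29 members above 0 in cells 18 to 20, the median share in cell 21 went from 0.531% to 0.903%, and in cell 22 from 0.159% to 0.275%, as a percent of the mean in place of the highest. Members found in cell 21 (25) fell to 11 at 10 FPKM, 2 with the 2% limit and 1 with 5%. In cell 22 (23) they fell to 5, 1 and 0. In cell 27 (8) they were 14 at 0.1 FPKM, 4 at 10 FPKM, 5 with the 2% limit and 4 with 5%. Of 128 alternative counts of members found per library 54 moved, 44 of them in libraries other than these 3. The causes were not tested. No paired analysis was possible because cells and pools share no animal or pairing label. Depth is unknown for cells 18 to 28, so a value near 0 there has no counting interval.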
